A study of Homo sapiens with 2 samples.

Results

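The mitochondrial ribosomal proteins were examined here in VMRC-LCD cells after *DRAIC* knockdown. Transcript clusters that the array's annotation gives more than 1 symbol were treated as unnamed, which left 17709 of 21448 with a symbol. Every gene among them whose symbol begins with MRPL or MRPS and a number was taken, which gave 74 transcript clusters. Of these, 47 were MRPL genes of the large subunit and 27 were MRPS genes of the small subunit, and each had 1 transcript cluster. RefSeq lists 77 protein-coding genes of this pattern, and the other 3, *MRPL45*, *MRPL53* and *MRPS6*, were not analysed here.

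VMRC-LCD is a lung adenocarcinoma line with neuroendocrine (NE) differentiation. The cells received siRNA no2 against the long non-coding RNA *DRAIC* (si-*DRAIC*2) or a negative control siRNA (si-NC), each at 20 nmol/L for 72 h and with no other agent named. Total RNA of each condition was measured on 1 Human Clariom S array, so that no value below has a replicate, and p-values were not computed. A single siRNA in a single line stands for the knockdown, and effects of this siRNA on other RNAs cannot be told apart from those of *DRAIC*.

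The mitochondrial ribosome is the machine that translates the few messages encoded in mitochondrial DNA, all of them for subunits of the respiratory chain and ATP synthase. Its RNAs are made inside the organelle, but its proteins are encoded in the nucleus, translated in the cytosol and imported. Many of these proteins descend from the bacterial ribosome, and others exist only in mitochondria. In bulk RNA, fewer cells with a message and less message per cell cannot be told apart.

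The authors' log2 signals are on a quantile-normalized scale, and every difference below subtracts the si-NC value of a gene from its si-*DRAIC*2 value. Across all transcript clusters the median difference was −0.011 with an SD of 0.38, which is a spread over genes and not an experimental error. No transcript cluster carried *DRAIC* as its single symbol, so the knockdown was not checked on the array. By RT-qPCR, the study reported less *DRAIC* after this siRNA than after si-NC. To gauge the signal of genes presumed not to be expressed, 497 genes of families of chemosensory receptors, hair proteins and defensins were used, and 95% of them had a mean signal of 6.06 or below. Of the epithelial markers, 4 of 5 lay above that level, as did all 5 NE markers measured, whereas no marker of leukocytes or endothelium did (0 of 3 each). *COL1A2* was the 1 of 3 fibroblast markers above it. Of the markers of the lung adenocarcinoma lineage, *NKX2-1* lay at 6.42 in si-*DRAIC*2 and 5.98 in si-NC, and *NAPSA* and *SFTPB* lay below the level on both arrays. All mitochondrial ribosomal protein genes but *MRPS31* (73 of 74) had a mean signal above it.

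Promoters of 4 members are shown first, picked after their values were seen. *MRPL19* and *MRPS18B* had the highest difference of their subunit, *MRPL3* the second lowest of the large subunit, and *MRPL38*, at rank 65 of 74 from the lowest, is shown as a promoter with 2 of the motifs below. *MRPL19* and *MRPL38*, both of the large subunit, and *MRPS18B*, of the small subunit, were higher in si-*DRAIC*2, and *MRPL3*, of the large subunit, was lower. Each sequence runs from 250 bases before to 50 bases after the RefSeq transcription start in GRCh38.p14. Capitals mark matches on either strand to 3 short motifs of factors known to act at promoters of nuclear genes for mitochondrial proteins, CGCANGCG (the core of the NRF1 site), CCGGAAGT (an ETS site, as bound by GABP) and AAGATGGCG (a YY1 site). The *MRPL19* promoter is at chr2:75646533-75646832 on the plus strand, that of *MRPL38* at chr17:75904835-75905134 on the minus strand, that of *MRPS18B* at chr6:30617590-30617889 on the plus strand and that of *MRPL3* at chr3:131502922-131503221 on the minus strand.
MRPL19: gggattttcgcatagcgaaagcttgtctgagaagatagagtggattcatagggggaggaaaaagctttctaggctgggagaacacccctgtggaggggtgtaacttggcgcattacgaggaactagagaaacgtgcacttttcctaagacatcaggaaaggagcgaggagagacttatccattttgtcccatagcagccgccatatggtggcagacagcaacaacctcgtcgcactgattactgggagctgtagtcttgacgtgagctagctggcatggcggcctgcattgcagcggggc
MRPL38: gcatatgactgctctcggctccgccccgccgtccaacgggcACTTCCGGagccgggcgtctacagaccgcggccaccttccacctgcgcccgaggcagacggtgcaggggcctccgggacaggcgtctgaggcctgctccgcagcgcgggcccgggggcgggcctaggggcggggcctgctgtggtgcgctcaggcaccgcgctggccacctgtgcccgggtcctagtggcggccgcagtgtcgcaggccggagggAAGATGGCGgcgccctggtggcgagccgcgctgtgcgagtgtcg
MRPS18B: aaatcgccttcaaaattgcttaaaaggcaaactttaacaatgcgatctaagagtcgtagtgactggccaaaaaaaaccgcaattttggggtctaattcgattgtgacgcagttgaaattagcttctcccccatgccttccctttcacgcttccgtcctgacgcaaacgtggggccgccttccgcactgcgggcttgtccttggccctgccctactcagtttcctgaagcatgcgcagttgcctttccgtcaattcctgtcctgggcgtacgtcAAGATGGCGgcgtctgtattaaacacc
MRPL3: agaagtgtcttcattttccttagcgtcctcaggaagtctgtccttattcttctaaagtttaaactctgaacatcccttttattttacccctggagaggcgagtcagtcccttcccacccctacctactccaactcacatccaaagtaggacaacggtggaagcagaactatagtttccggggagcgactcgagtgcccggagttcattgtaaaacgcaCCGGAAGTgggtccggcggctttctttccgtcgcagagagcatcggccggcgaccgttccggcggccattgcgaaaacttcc

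Motif matches stood in promoters of genes with either sign of difference. The *MRPL38* promoter held an ETS match at base −209 and a YY1 match at base 6 relative to the start. *MRPS18B* held a YY1 match at base 23 and *MRPL3* an ETS match at base −32. No match was found in the *MRPL19* window, nor in those of *MRPL18*, *MRPL40*, *MRPL4* and *MRPL24*, whose differences were higher than that of *MRPL38*. *MRPL46* (0.44) and *MRPS33* (0.45) were also higher than *MRPL38*, and held a YY1 match and an NRF1 core match. Of the 74 members, 66 had a promoter in the RefSeq table (*MRPL2*, *MRPL10*, *MRPL13*, *MRPL15*, *MRPL21*, *MRPL23*, *MRPL35* and *MRPS28* had none). The YY1 motif was found in 13 of the 66 promoters (19.7%), against 1.75% of all 35116 promoters and 2.79% of the 14250 that belong to genes named on the array. The ETS motif was in 10 (15.2%, against 4.14% and 6.24%) and the NRF1 core in 12 (18.2%, against 10.0% and 14.7%). At least 1 motif was found in 30 member promoters (45.5%), against 14.6% of all promoters and 21.5% of those of array genes. The median difference between the arrays was 0.18 for the members with any of these motifs and 0.16 for those without. For the YY1 motif alone it was 0.19 with and 0.18 without, for the ETS motif 0.16 and 0.18, and for the NRF1 core 0.15 and 0.18. A match is a description of the letters, and binding was not measured.

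Most mitochondrial ribosomal protein genes had a slightly higher signal in si-*DRAIC*2, and nearly all lay within 1.5-fold, the threshold taken over from the methods of the study. The median difference of the 74 genes was 0.18, from −0.36 for *MRPL1* to 0.63 for *MRPL19*. *MRPL19* was more than 1.5-fold higher, and the other 73 were within 1.5-fold. The background of the arrays was 5.13% of all transcript clusters higher and 6.26% lower by this size, and the members had 1.35% higher and none lower. Of the 74 genes, 55 (74.3%) had a difference above 0, against 48.4% of all transcript clusters. These were for the most part small differences.

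**Figure D1:**
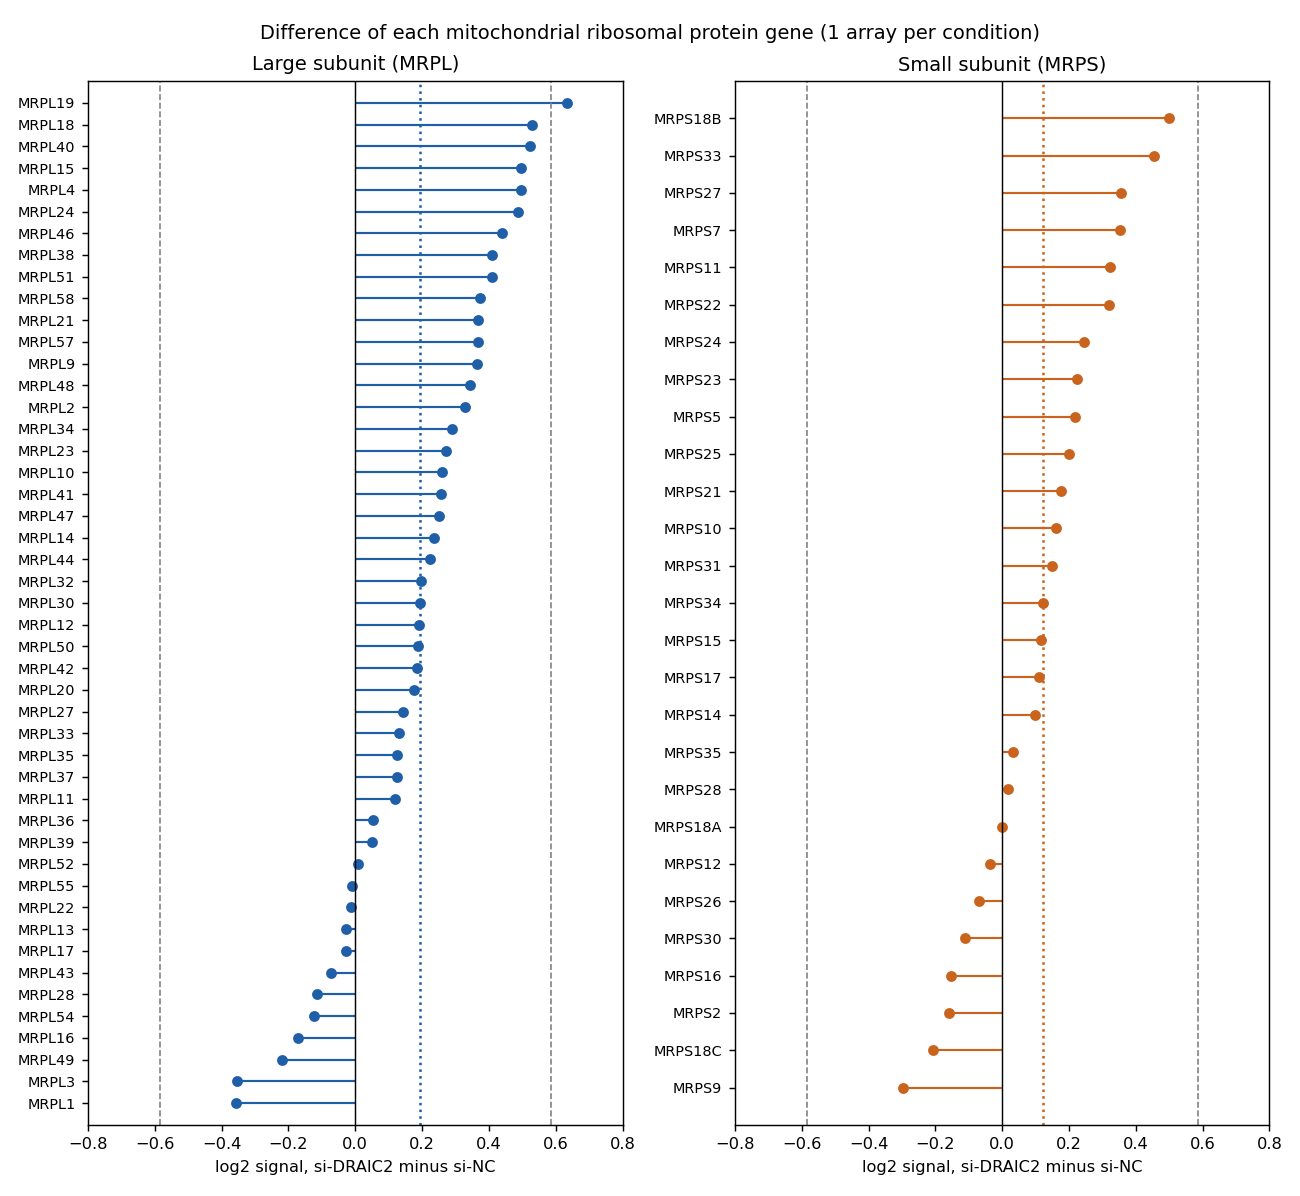
Difference in log2 signal, si-*DRAIC*2 minus si-NC, of each of the 47 MRPL genes (left) and 27 MRPS genes (right), grouped by symbol and ordered by size. Dashed lines mark 1.5-fold and dotted lines the median of each subunit (0.19 and 0.12). *MRPL19* is the 1 gene past a dashed line, and 55 of the 74 points lie right of 0.

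At a smaller size the members leaned to 1 side. More than 1.2-fold higher were 23 of the 74 (31.1%), against 20.5% of all transcript clusters. More than 1.2-fold lower were 3 (4.05%), against 23.7%. These 3 were *MRPL1*, *MRPL3* and *MRPS9*. When transcript clusters with a mean signal under 6.99, the median of the arrays, were left out, 72 members stayed. Of these, 54 had a difference above 0 (75%), against 48.8% of the 10724 transcript clusters left. More than 1.2-fold higher were 23 (31.9%, against 18.4%) and lower 3 (4.17%, against 21.3%). By 1.5-fold, 1 was higher and none lower, against a background of 3.51% and 4.86%.

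By median difference, the lean was smallest below a mean signal of 9. The 11 members there had a median difference of 0.0083, against −0.019 for all 13812 transcript clusters below 9. Of the 11, 6 lay above 0 (54.5%, against 47.6% of those transcript clusters). More than 1.2-fold higher were 3 of these 11 (27.3%, against 22.1% of those transcript clusters), and none was lower (against 26.4%). For mean signals from 9 to 11, the 32 members had a median difference of 0.25, against −0.039 for all 3236 transcript clusters in that range. From 11 to 13, the median was 0.12 for 22 members, against −0.0047 for all 2879. From 13 to 15, it was 0.18 for 9 members, against 0.052 for all 1218. When each gene was placed among the 501 transcript clusters of most similar signal, 57 of the 74 lay above their median. In that measure *MRPS18B*, *MRPL19*, *MRPL18* and *MRPL40* (4 members) lay at percentile 95 or above and none at percentile 5 or below, and *MRPL3*, at percentile 5.19, was the lowest. By definition about 5% of all transcript clusters lie past each of these bounds, so that 4 of 74 is near this share. About as many transcript clusters lie above such a median as below it. These ranks describe 1 pair of arrays, and members are not replicates of a condition.

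**Figure D2:**
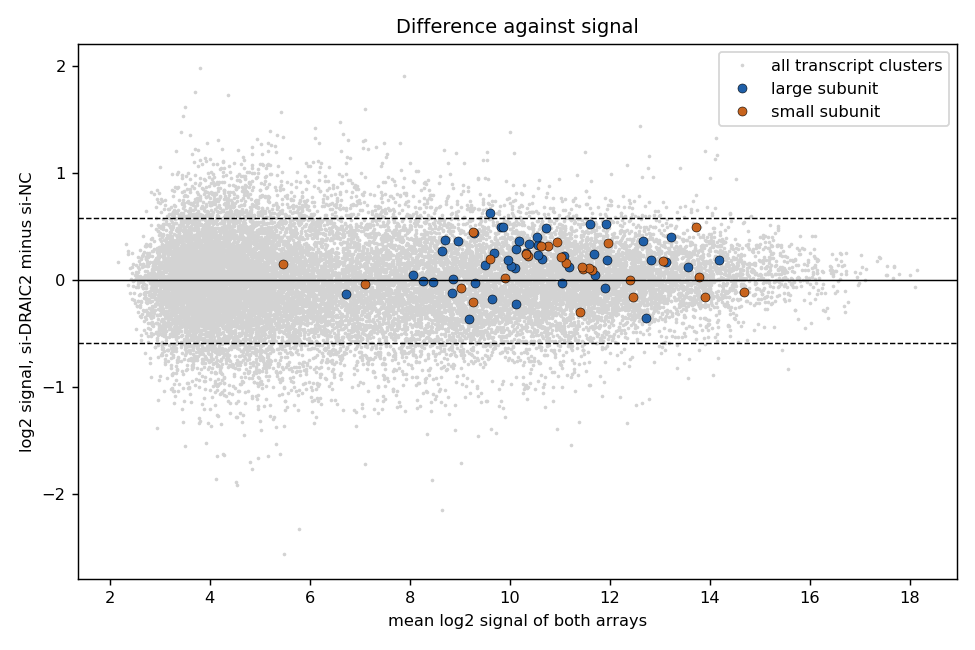
Difference in log2 signal (si-*DRAIC*2 minus si-NC) against the mean log2 signal of both arrays, with all 21448 transcript clusters in grey, MRPL genes in blue and MRPS genes in orange. Dashed lines mark 1.5-fold. The members lie mostly between mean signals of 9 and 15 and above 0, inside the cloud of all genes.

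In the large subunit, the highest member was *MRPL19*, which encodes the mitochondrial counterpart of bacterial L19, a protein at the interface with the small subunit. It had a log2 signal of 9.92 in si-*DRAIC*2 and 9.29 in si-NC, a difference of 0.63 or 1.55-fold. *MRPL18*, the counterpart of L18 in the central protuberance, a crown of proteins at the top of the subunit, had 11.86 in si-*DRAIC*2 and 11.33 in si-NC, a 1.44-fold difference. *MRPL40*, a mitochondria-specific protein of the same crown, had 12.19 in si-*DRAIC*2 and 11.67 in si-NC (1.44-fold). Both stayed within 1.5-fold. *MRPL15* and *MRPL4*, counterparts of L15 and L4 in the core of the subunit, had differences of 0.50 each, with 10.11 and 10.08 in si-*DRAIC*2 against 9.61 and 9.58 in si-NC. *MRPL24*, whose bacterial counterpart L24 sits at the mouth of the exit tunnel and starts subunit assembly in bacteria, had 10.96 in si-*DRAIC*2 and 10.48 in si-NC (0.49).

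At the low end of the large subunit stood *MRPL1*, the protein of the mobile L1 stalk, with 9.01 in si-*DRAIC*2 and 9.37 in si-NC, and *MRPL3*, a core protein near the site of peptide bond formation, with 12.55 in si-*DRAIC*2 and 12.90 in si-NC. The difference was −0.36 for *MRPL1* and −0.35 for *MRPL3*, both 1.28-fold lower. Among the transcript clusters of similar signal, *MRPL1* lay at percentile 20.2. The mitochondria-specific *MRPL49* had −0.22, *MRPL16*, the counterpart of L16, −0.17, the mitochondria-specific *MRPL54* −0.12 and *MRPL28*, the counterpart of L28, −0.12. *MRPL54* was the dimmest gene of this subunit, with 6.66 in si-*DRAIC*2 and 6.79 in si-NC, and its value is close to the level of the presumed silent genes. The brightest, *MRPL42*, had 14.27 in si-*DRAIC*2 and 14.08 in si-NC.

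**Figure D3:**
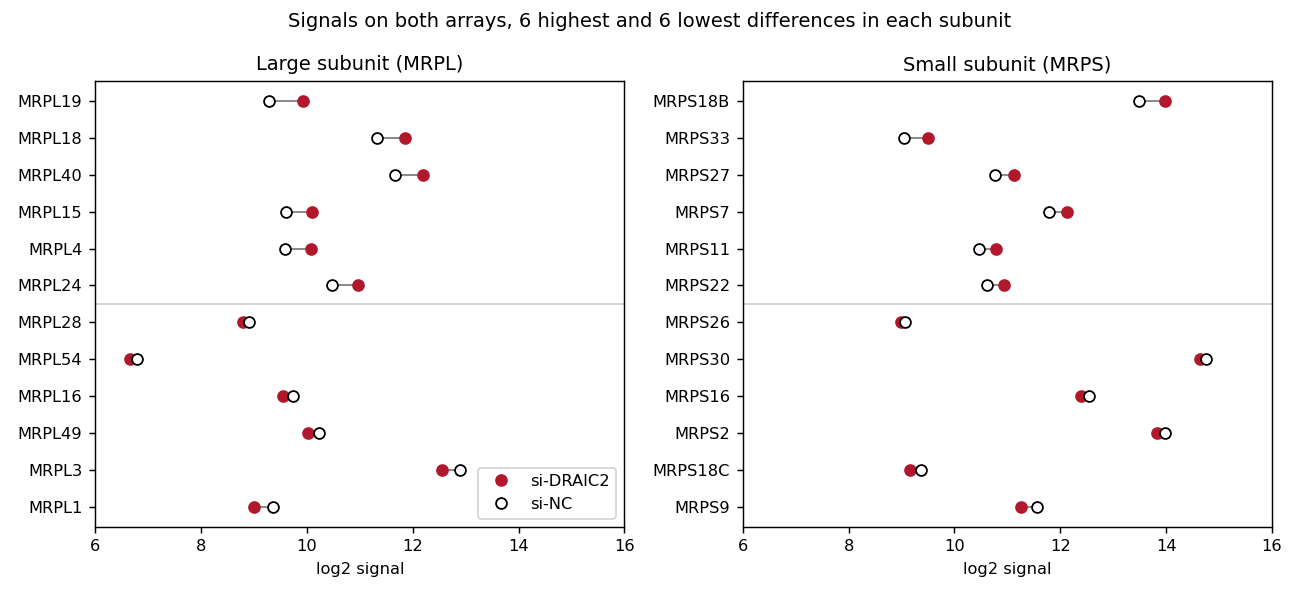
Log2 signals on the si-*DRAIC*2 array (filled red) and the si-NC array (open) of the 6 genes with the highest and the 6 with the lowest difference in each subunit, above and below the grey line. Each point is 1 array. The largest gap is that of *MRPL19*, 9.92 against 9.29.

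In the small subunit, *MRPS18B*, 1 of 3 human relatives of bacterial S18, was the highest, with 13.98 in si-*DRAIC*2 and 13.48 in si-NC, a difference of 0.50 or 1.41-fold. It is the member with the highest rank among genes of similar signal (percentile 97.0). *MRPS33*, a small mitochondria-specific protein, had 9.49 in si-*DRAIC*2 and 9.04 in si-NC (0.45). *MRPS27*, a pentatricopeptide repeat protein, had 11.12 in si-*DRAIC*2 and 10.76 in si-NC (0.36), and *MRPS7*, the counterpart of S7 in the head of the subunit, had 12.13 in si-*DRAIC*2 and 11.78 in si-NC (0.35). *MRPS11*, the counterpart of S11, and *MRPS22*, a mitochondria-specific protein, both had a difference of 0.32. No gene of this subunit passed 1.5-fold, against 5.13% of all transcript clusters higher and 6.26% lower. Of the 27, 19 had a difference above 0 (70.4%, against 48.4% of all transcript clusters).

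The lowest was *MRPS9*, the counterpart of S9, with 11.26 in si-*DRAIC*2 and 11.55 in si-NC (−0.30). *MRPS18C*, another S18 relative, had 9.16 in si-*DRAIC*2 and 9.37 in si-NC (−0.21), and *MRPS18A*, the last of the 3, had 12.39 on both arrays, so that these relatives did not share a direction. *MRPS2*, the counterpart of S2, had 13.82 in si-*DRAIC*2 and 13.98 in si-NC (−0.16). *MRPS16*, the counterpart of S16, had −0.15 and *MRPS26* −0.069. *MRPS31* had 5.54 in si-*DRAIC*2 and 5.39 in si-NC, below the level of the presumed silent genes, with a difference of 0.15. *MRPS12*, the counterpart of S12 at the decoding site, was the next dimmest of this subunit, with 7.09 in si-*DRAIC*2 and 7.13 in si-NC. Of the 74 members, 38 have at least 1 pseudogene in RefSeq. *MRPS21* has the most, with 9. *MRPS18C* has 6 and *MRPS33* 4, and whether the probes tell them apart was not tested. *MRPL19* has none.

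Both subunits had a median above 0. The median difference was 0.19 in the 47 MRPL genes and 0.12 in the 27 MRPS genes. Of the MRPL genes, 36 lay above 0 (76.6%, against 48.4% of all transcript clusters). Of the MRPL genes, 17 were more than 1.2-fold higher (36.2%, against 20.5% of all transcript clusters) and 2 lower (4.26%, against 23.7%). Of the MRPS genes 6 were higher (22.2%), which is near the share of all transcript clusters, and 1 was lower (3.70%). The SD over genes was 0.23 in MRPL and 0.20 in MRPS, so that the medians lie closer together than the genes within each subunit. Whether the subunits differ could not be tested with 1 array per condition. The symbols do not follow the assembled ribosome in every case. *MRPS18A* and *MRPS30* encode proteins of the large subunit in spite of their names, and both were at or below 0 (−0.00085 and −0.11). *MRPS30* was the brightest member, with 14.63 in si-*DRAIC*2 and 14.74 in si-NC. Moved to the large subunit, and with the ribosomal proteins that bear other names added, they leave a median of 0.19 in the large and 0.16 in the small subunit.

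Those with other names showed no common direction. *DAP3*, a GTP-binding protein of the small subunit also named for a part in cell death, had 13.08 in si-*DRAIC*2 and 12.78 in si-NC (0.29), and *PTCD3*, a pentatricopeptide repeat protein of the same subunit, had 13.79 in si-*DRAIC*2 and 13.53 in si-NC (0.26). *CHCHD1*, another small-subunit protein, had −0.062, and *GADD45GIP1*, of the large subunit, −0.27, with 7.39 in si-*DRAIC*2 and 7.66 in si-NC. *AURKAIP1* was not analysed here. *KGD4*, long named *MRPS36* but now known as a subunit of the ketoglutarate dehydrogenase complex, had 8.87 in si-*DRAIC*2 and 9.17 in si-NC (−0.30).

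By origin and place in the ribosome, the groups overlapped broadly. The proteins with other names are included here. The 30 large-subunit proteins with a bacterial counterpart had a median of 0.19, with 22 above 0, and the 20 measured mitochondria-specific ones a median of 0.19, with 14 above 0. In the small subunit the median was 0.11 for 15 proteins with a counterpart and 0.22 for 13 mitochondria-specific ones, of which 11 lay above 0. The central protuberance had the highest median of the groups looked at, 0.37 for 9 genes, of which 8 lay above 0 (88.9%, against 48.4% of all transcript clusters) and 6 were more than 1.2-fold higher (66.7%, against 20.5%). Besides *MRPL18* and *MRPL40*, these were *MRPL46* (0.44), *MRPL38* (0.41), *MRPL58* (0.37), a peptidyl-tRNA hydrolase built into the ribosome, and *MRPL48* (0.34). *MRPL27* had 0.14, *MRPL52* 0.0083 and *MRPL55* −0.0098 (0.00098 once the median of all transcript clusters was set to 0). Around the mouth of the exit tunnel, 6 genes had a median of 0.24, from −0.029 for *MRPL17* to 0.49 for *MRPL24*. Of the 4 genes of the stalks that bind translation factors and tRNA, *MRPL10* had 0.26, *MRPL12*, which also binds the mitochondrial RNA polymerase, 0.19 and *MRPL11* 0.12, and *MRPL1* was the one below 0. With so few genes in a group, these medians are descriptions only.

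**Figure D4:**
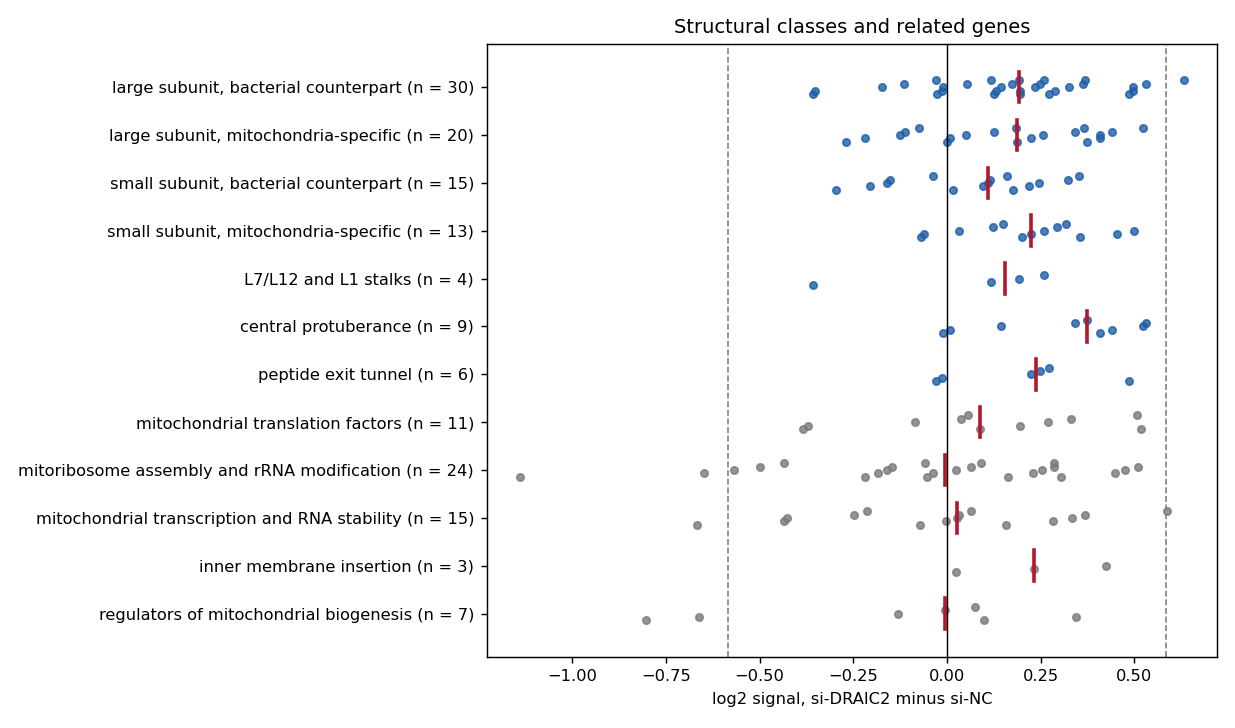
Difference in log2 signal (si-*DRAIC*2 minus si-NC) of single genes in classes of the mitochondrial ribosome (blue) and in lists of related genes (grey), with the number measured in brackets, the median as a red bar and 1.5-fold as dashed lines. Some genes stand in more than 1 class. The blue medians lie between 0.11 and 0.37, and the points left of the lower dashed line are all in grey lists.

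The lists of genes that serve the mitochondrial ribosome had medians closer to 0, apart from the short list for membrane insertion. Of 13 translation factors listed, 11 were measured and none passed 1.5-fold, against 5.13% of all transcript clusters higher and 6.26% lower. Their median was 0.088. *MRRF*, which recycles ribosomes after termination, had 12.46 in si-*DRAIC*2 and 11.94 in si-NC (0.52), *MTIF3*, an initiation factor, had 0.51, and *MTRF1L*, the main release factor, had −0.38. *GFM1*, the elongation factor that moves the ribosome along, had −0.37. In the list of 27 genes for assembly of the ribosome and modification of its RNA, 24 were measured with a median of −0.0055 (0.0052 after centring). Of these, 12 lay above 0 (50%, near the 48.4% of all transcript clusters). None was more than 1.5-fold higher and 2 were lower (8.33%, near the 6.26% of all transcript clusters). *RPUSD4*, a pseudouridine synthase needed for the large-subunit RNA, had 7.85 in si-*DRAIC*2 and 8.99 in si-NC, a difference of −1.14 or 2.20-fold. *TRUB2*, another mitochondrial pseudouridine synthase, had 9.57 in si-*DRAIC*2 and 10.22 in si-NC (−0.65). Their partners in the same protein module had small differences, with *FASTKD2* at −0.16, *RCC1L* at −0.15 and *NGRN* at 0.064. *MALSU1*, a late assembly factor of the large subunit, was the highest of the list with 0.51.

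Genes of mitochondrial transcription and RNA handling went both ways. Of 16 listed, 15 were measured, with a median of 0.028, and 1 was past 1.5-fold in each direction (6.67%, near the 5.13% higher and 6.26% lower of all transcript clusters). *POLRMT*, the RNA polymerase of mitochondria, was just past 1.5-fold with 8.01 in si-*DRAIC*2 and 7.42 in si-NC (0.59, and 0.51, within 1.5-fold, with 32 added to the linear signals). *TRMT10C*, a subunit of mitochondrial RNase P, had 8.72 in si-*DRAIC*2 and 9.39 in si-NC (−0.67). The other subunits of this enzyme, *PRORP* and *HSD17B10*, had −0.21 and 0.28. *TFAM*, which packages mitochondrial DNA and takes part in starting its transcription, had 13.36 in si-*DRAIC*2 and 13.79 in si-NC (−0.43). All 3 genes listed under membrane insertion had a difference above 0. *COX18* had 0.42 and *LETM1*, which is not itself an insertase, 0.23. *OXA1L*, which inserts newly made proteins at the ribosome, had 0.024 (−0.0065 after a loess on the mean signal). Of 9 regulators of mitochondrial gene expression, 7 were measured and 2 were more than 1.5-fold lower (28.6% of few genes, against 6.26%). *GABPA*, the DNA-binding subunit of the ETS factor GABP, had 8.82 in si-*DRAIC*2 and 9.48 in si-NC (−0.66). *MYC* had 3.78 in si-*DRAIC*2 and 4.58 in si-NC, both below the level of the presumed silent genes. *NRF1* had −0.13, *PPARGC1A* 0.099 and *PPARGC1B* 0.34. No part of these regulators in the values of the ribosomal proteins was tested.

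Other large protein complexes showed a lean of similar size. The 45 cytosolic ribosomal protein genes picked by symbol, which leave out *FAU* and are not the full set, had a median difference of 0.16. Of these, 42 lay above 0 (93.3%, against 48.4% of all transcript clusters). By 1.5-fold, 1 was higher (2.22%, against 5.13%) and none lower (against 6.26%). The 76 genes for nuclear-encoded subunits of the respiratory chain and ATP synthase were also picked by symbol and are not the full set. Their mean signals reached down to 3.08, below the level of the presumed silent genes. They had a median of 0.19, with 65 above 0 (85.5%), 5 more than 1.5-fold higher (6.58%, near the 5.13% of all transcript clusters) and 1 lower (1.32%, against 6.26%). These values stand beside 0.18 for the mitochondrial ribosomal proteins. With a loess on the mean signal subtracted, the medians were 0.17 for the mitochondrial ribosomal proteins, 0.098 for the cytosolic ones and 0.18 for the respiratory chain. Of 6 genes often used as references, picked after the values were seen, the lowest was *TBP* (−0.19) and the highest *HPRT1* (0.40), the reference of the study's RT-qPCR. Of the 74 members, 58 lie between these values. How much of the shift the array or its normalization gives was not tested.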

How the data were processed

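Total RNA of VMRC-LCD cells after si-*DRAIC*2 or si-NC was hybridized to Human Clariom S arrays, 1 per condition. The authors ran SST-RMA (Transcriptome Analysis Console) on the scans, with background correction, quantile normalization and probe summarization, and deposited log2 signals. The software version is not given in the sources used here. Values were used as deposited.

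Rows were named through the platform annotation, and rows with more than 1 symbol were treated as unnamed. The 74 member symbols were checked by gene identifier against RefSeq (GRCh38.p14), with no change. Members and gene lists were chosen with earlier results of these data known. Named genes are all members past 1.5-fold, the 6 highest and 6 lowest differences of each subunit, the 3 brightest and dimmest members, and in each related list written gene by gene those past 1.5-fold and both extremes. The cytosolic ribosomal proteins and respiratory chain subunits, picked by symbol, are summarised only. Genes beside these were added after their values were seen. Lists are described by medians and counts beside those of all rows. No test was possible, and the number of arrays limits the precision. Alternatives were averaging rows of a symbol, a signal minimum (the median, or the 95th percentile of presumed silent genes), centring, a loess with span 0.3, an offset of 32, membership by the assembled ribosome, and thresholds of 1.2-fold and 2-fold. The calls and the loess were checked on simulated data. The planted differences were larger than those of the members, and the noise was smaller than the spread over genes. A median shift of the size seen here was not simulated, so this check does not bear on it. Calculations used Python 3.11.15, numpy 2.4.6, pandas 2.3.3, statsmodels 0.14.6 and matplotlib 3.10.9.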

Additional observations from a re-analysis of the deposited data

How the results depend on the processing

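The medians of all members, of the large and of the small subunit kept their sign under each alternative that changed the rows, the scale or the membership, from 0.17 to 0.19 for all members, 0.19 to 0.22 for the large and 0.11 to 0.16 for the small subunit. *MRPL19* was past 1.5-fold in each of these, and no member was lower. Averaging the rows of a symbol could change nothing, because each member had 1 transcript cluster. The signal minima left 72 and 73 of the 74 members, and centring moved every value by the same small amount. With a threshold of 2-fold, 0 members were higher and 0 lower, and with 1.2-fold 23 were higher and 3 lower. The 24 members with the highest and lowest differences in their subunits were picked as extremes, which made a change of sign unlikely beforehand. All 72 of their values after centring, the loess or the offset had the sign of the deposited value. On these scales 55 to 58 of the 74 members lay above 0, and *MRPL13*, *MRPL22*, *MRPL55*, *MRPS12*, *MRPS18A* and *MRPS35*, all close to 0, changed sign on at least 1 of them. With 1 array per condition, no replicate could be left out, and a change shared by all transcripts would not show after quantile normalization.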

Other observations

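Several mitochondrial ribosomal protein genes start head to head with a neighbour. By RefSeq starts at most 1000 bases apart on opposite strands, 17 members had such a partner on the array, in 16 distinct pairs. The 17 members had a median difference of 0.19 (si-*DRAIC*2 minus si-NC) and the 17 partners one of 0.0075. Among the partners, which include the members *MRPL46* and *MRPS11*, 9 lay above 0, beside 48.4% of all transcript clusters. In 7 of the 16 pairs the sign was the same. *MRPL46* (0.44) and *MRPS11* (0.32), members of different subunits that start 320 bases apart, were both higher. *MRPL32* (0.20) stood beside the proteasome gene *PSMA2* (0.30) and *MRPS7* (0.35) beside *GGA3* (0.33), a gene of vesicle sorting. Other pairs differed in direction. *MRPL30* had 0.19 and its partner *MITD1*, a gene of abscission, −0.57, with 9.38 in si-*DRAIC*2 and 9.95 in si-NC. *MRPL57* had 0.37 and *SKA3*, a gene of the kinetochore, −0.52, *MRPS27* had 0.36 and *PTCD2* −0.46, and *MRPL49* had −0.22 and *FAU*, which encodes a cytosolic ribosomal protein, 0.31. *PIERCE1*, beside *MRPS2* (−0.16), was the partner past 1.5-fold (1.80-fold higher), but its signal of 5.43 in si-*DRAIC*2 and 4.58 in si-NC was below the level of the presumed silent genes.

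The members lie on 21 chromosomes, and 74.3% of all members had a difference above 0. All 7 members on chromosome 17 and all 4 on chromosome 7 lay above 0. So did all on chromosomes 12 (3 members), 13 and 15 (2 each) and 14, 21 and 22 (1 each). Neither of the 2 on chromosome 4 (*MRPL1* and *MRPS18C*) or the 2 on chromosome 10 (*MRPS16* and *MRPL43*) did, nor the 1 on chromosome 20. The remaining chromosomes had members on both sides of 0. The counts are small and no test was made.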
